A study of Fragaria x ananassa with 6 samples.

Results

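NAC, WRKY and AP2/ERF proteins form 3 large families of plant transcription factors, and the array carried 4 genes of these families that are described here, namely FaNAC1, FaAP2(1), gene28720 and gene12308. They were chosen by their names on the array, and they are 4 of the 35116 gene names printed there. FaNAC1 and FaAP2(1) are named after a NAC and an AP2 factor by the array itself, and these were the only names on the array that held NAC, WRKY, AP2, ERF, RAV, DREB or CBF. gene28720 and gene12308 carry only identifiers on the array, and the study describes them by similarity as a probable WRKY71 and a probable WRKY11. The study described both of them because they passed its own criteria on these same samples, so that their direction here is not independent evidence.

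The study asked which transcripts change in the ripe strawberry receptacle when FaPRE1 is silenced. FaPRE1 encodes an atypical HLH protein, a regulator that lacks the basic stretch for DNA binding. Fruits of Fragaria x ananassa were injected, while attached to the plant, with Agrobacterium carrying either the pFRN-FaPRE1 RNAi construct (3 samples, called RNAi) or the empty pFRN vector (3 samples, called control). Both groups therefore went through the same infiltration, and the silencing was transient, in injected tissue of fruits pooled for each sample, rather than in a stable line. The study's methods state that achenes, the seed-bearing fruits on the surface of the receptacle, were taken off before RNA was extracted, and that the pools of fruit were independent. The labels are not of one mind, since a genotype field reads overexpressing for the RNAi samples and the extraction text names floral buds. Titles, sources and design name the RNAi construct and the fruit, and these were followed.

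NAC factors share a conserved DNA-binding domain at the N terminus and are known in fruits for regulators of ripening, among them NOR of tomato. WRKY factors bind the W-box and are best known for roles in defence and senescence. AP2/ERF factors include the effectors at the end of the ethylene pathway, the floral regulator APETALA2, and the RAV proteins, which carry a B3 domain in addition. In strawberry, a non-climacteric fruit, ripening of the receptacle is promoted by abscisic acid and held back by auxin from the achenes.

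Among the members, only gene28720 had a sequence in the sources used here, a primer pair for qRT-PCR. Both primers are shown because gene28720 had the largest change of the 4 members. They are written 5′ to 3′ with no part in capitals.
gene28720 forward primer: cggacagaaggcagtcaagaa
gene28720 reverse primer: ggtcccgaatcctcccaaaa

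Each array carried 1 RNAi and 1 control sample of the same number in different dyes. RNAi was in Cy3 for replicates 1 and 3, and in Cy5 for replicate 2. Values below are either the normalized log2 signal of a sample or the log2 ratio of RNAi over control within an array, where 1 unit is a change of 2-fold and a negative ratio means lower in RNAi. Ratios were tested with limma, and a gene was called where its Benjamini-Hochberg adjusted p over all 21098 genes tested was below 0.05. Of those genes, 7350 were called, which is 34.8%, with 16.9% called higher and 17.9% called lower in RNAi. On each array fewer spots were well above background for RNAi (44.1 to 60.4%) than for control (60.7 to 72.7%). With 3 arrays, precision is limited by their number.

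The RNAi target came first as a check of the labels. The FaPRE1 probe had normalized log2 signals of 9.91, 9.55 and 9.91 in RNAi, against 10.39, 10.09 and 10.44 in control. The ratio was -0.52 with a standard error (SE) of 0.11 and an adjusted p of 0.0152 in the limma fit. It was below 0 on 3 of 3 arrays, although the ranges of RNAi and control signals lay close to each other. Among all tested genes, 15.7% had a lower ratio and 17.9% were called lower, so that the target hardly stands out on these arrays. The study also assayed its target by qRT-PCR, in receptacles injected with the construct and with the empty vector. It checked selected array genes by qRT-PCR as well. Those measurements are not part of the values given here, so the array probes alone do not settle how far the target was silenced. The call of the FaPRE1 probe was lost with the software's processed signals (adjusted p = 0.06), with the methods' t-test (0.0916), without replicate 2 (0.0564) and without replicate 3 (0.0995). It was also lost in limma with array ratios centred on their median in place of loess (0.054), where no gene was called. A second probe for the target locus, gene30478, had a ratio of -0.33 with an adjusted p of 0.184 in limma. With the processed signals it was called, at -0.78 (adjusted p = 0.0482), and leaving out 1 replicate gave uncalled ratios from -0.49 without replicate 1 to -0.11 without replicate 2. Whether these probes lie within the fragment carried by the construct is not given in the sources used here.

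In RNAi receptacles, FaNAC1 and gene28720 fell and gene12308 rose relative to most genes, whereas FaAP2(1) did not pass the test. Thus 3 of 4 members were called, 1 higher and 2 lower, beside 34.8% of all genes, 16.9% higher and 17.9% lower. The same 3 members were called and beyond 2-fold, beside 10.9% of all genes (6.19% higher and 4.7% lower). Their groups did not overlap, with RNAi above control in 1 and below it in 2, beside 50.7% of all genes (24.7% above and 26% below). However, gene28720 and gene12308 were described by the study because they changed on these samples, so that these counts are not independent evidence. Of the 2 members named by the array itself, FaNAC1 was called and FaAP2(1) was not. All spots of the members were well above background in all 6 samples, and none was saturated or flagged as an outlier. The direction of gene12308 holds relative to the typical gene on the array, and it is reversed when signals are set against the spike-in probes, as described further on.

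**Figure D1:**
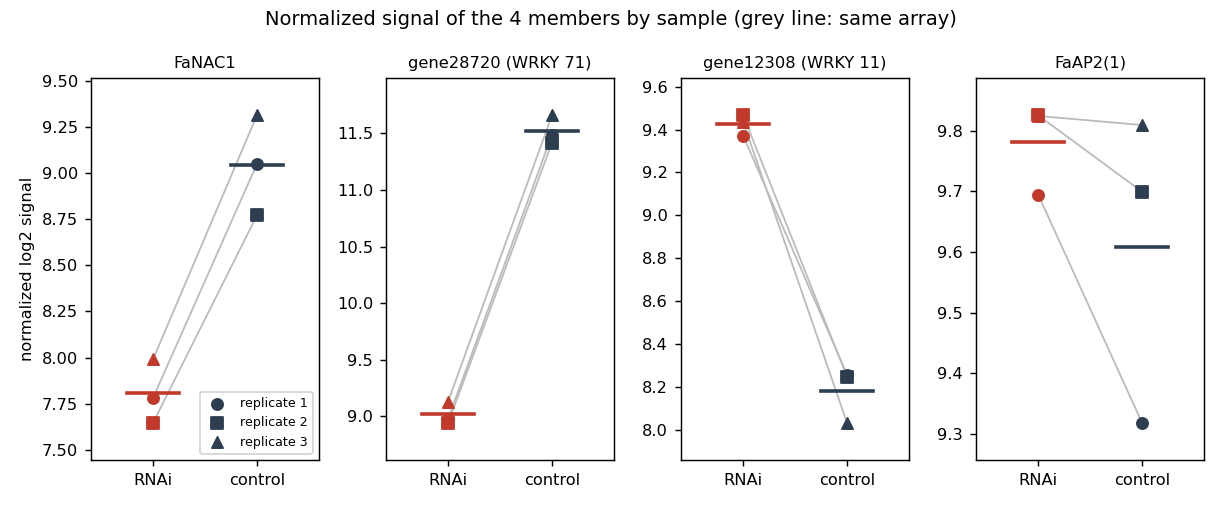
Normalized log2 signal (vertical axis, a separate scale in each panel) of each member in the 3 RNAi samples (left, red) and the 3 control samples (right, dark), with the group means as bars and samples of the same array joined. RNAi samples lie below all control samples for FaNAC1 and gene28720 and above them for gene12308 (on this scale, not against spike-ins), and the groups overlap for FaAP2(1).

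FaNAC1 had normalized log2 signals of 7.78, 7.65 and 7.99 in RNAi, against 9.05, 8.77 and 9.31 in control. Every RNAi sample lay below every control sample, and in both groups the sample of replicate 3 was the highest and that of replicate 2 the lowest. The ratio was -1.24 (SE 0.11, 95% interval -1.51 to -0.97, n = 3 arrays), a 2.36-fold lower signal, with an adjusted p of 0.00148 in limma. The arrays gave -1.27, -1.13 and -1.32, so that the array with the dyes turned gave the smallest change.

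The probe of FaNAC1, FragP00002607, was printed in 2 spots per array. Its uncorrected median signals in RNAi were 97 and 94.5 on the array of replicate 1, 160 and 162 on that of replicate 2, and 76 and 82 on that of replicate 3. The same spots read 1136 and 1021, 459 and 400, and 2290.5 and 1930 in control. In RNAi the spots were only 1.86 to 2.49 times their local background, whereas in control they were 10.26 to 29.37 times theirs. The ratios of both spots of an array differed by 0.06 to 0.23 log2 units, which is small beside the change itself. The software's processed signals, which differ in both background correction and dye normalization, gave -1.95 (SE 0.23, adjusted p = 0.00326, limma), whereas leaving out the background subtraction alone gave -1.30.

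gene28720, the probable WRKY71, had the largest change of the members. WRKY71 of Arabidopsis is known for a role in shoot branching and flowering. Its normalized log2 signals were 8.98, 8.94 and 9.13 in RNAi, against 11.49, 11.42 and 11.66 in control. The groups were far apart compared with the spread within them, which was 0.10 in RNAi and 0.13 in control (SD, n = 3 each). The ratio was -2.51 (SE 0.11, 95% interval -2.77 to -2.25, n = 3 arrays), a 5.68-fold lower signal, with an adjusted p of 0.000308 in limma. The arrays gave -2.51, -2.48 and -2.53 and were thus nearly alike in both dye orientations. Only 0.341% of tested genes had a lower ratio.

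Its probe, FragP00287025, was printed in 1 spot per array. The uncorrected signals were 196, 402.5 and 157 in RNAi, against 6602, 3081.5 and 11852 in control. These were 4.13 to 5.67 times the local background in RNAi and 73.37 to 145.42 times it in control.

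gene12308, the probable WRKY11, is named after an Arabidopsis factor known as a negative regulator of basal defence. Its normalized log2 signals were 9.37, 9.47 and 9.44 in RNAi, against 8.26, 8.25 and 8.03 in control. All RNAi samples lay above all control samples, and replicate 3 of the control was the lowest of the 6. The ratio was 1.24 (SE 0.12, 95% interval 0.96 to 1.53, n = 3 arrays), a 2.37-fold higher signal, with an adjusted p of 0.00165 in limma. The arrays gave 1.11, 1.22 and 1.40, and 4.46% of tested genes had a higher ratio.

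The probe of gene12308, FragP00123881, also had 1 spot per array. Its uncorrected signals were 286.5, 566 and 234.5 in RNAi, against 658, 308 and 884 in control. Before normalization the RNAi signal was thus the higher one only on the array of replicate 2, where RNAi was in Cy5, and the lower one on the others, where it was in Cy3. With the array ratios centred on their median in place of loess, the ratio of gene12308 was -0.05, and its arrays gave -0.38, 0.88 and -0.64.

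FaAP2(1) did not pass the test. Its normalized log2 signals were 9.69, 9.83 and 9.82 in RNAi, against 9.32, 9.70 and 9.81 in control. The groups overlapped, and replicate 1 of the control was the lowest sample. The ratio was 0.17 (SE 0.12, 95% interval -0.13 to 0.48, n = 3 arrays), with an adjusted p of 0.316 in limma. The interval leaves room for a rise of up to 0.48 log2 units and for a fall of up to 0.13. The arrays gave 0.38, 0.13 and 0.02, all of them above 0. The 2 spots per array of its probe, FragP00002342, differed by only 0.02 to 0.06 log2 units, less than the arrays differed from each other.

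**Figure D2:**
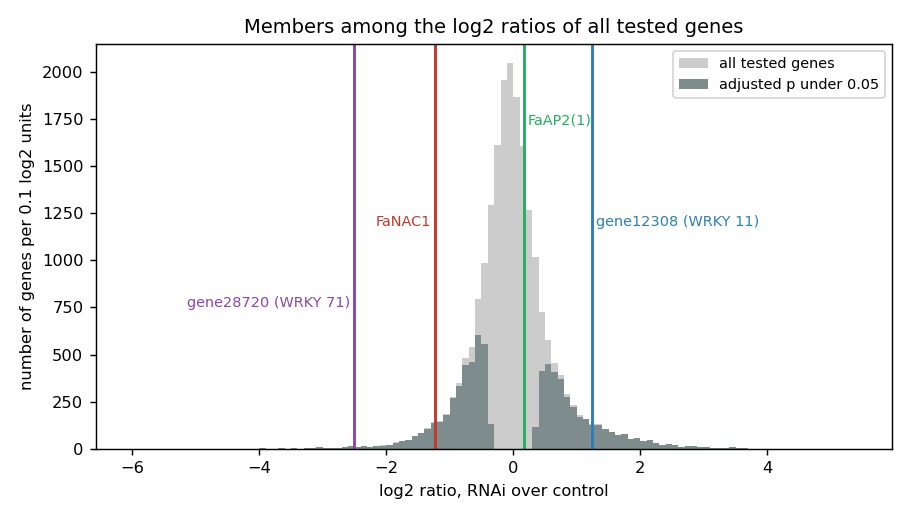
Number of genes (vertical axis) by log2 ratio of RNAi over control (horizontal axis) for the 21098 genes tested, in light grey, and for the 7350 called genes, in dark grey, with the members as vertical lines. gene28720 lies in the far lower tail at -2.51, FaNAC1 at -1.24 and gene12308 at 1.24 lie on either flank (loess scale, reversed for gene12308 against spike-ins), and FaAP2(1) lies near the centre.

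The place of each member among all tested genes was similar from array to array for the 3 called members. On the arrays of replicates 1, 2 and 3, gene28720 stood above only 0.398, 0.536 and 0.408% of genes. FaNAC1 stood above 2.68, 5.89 and 2.79% of them. gene12308 stood above 95.2, 94.9 and 95.5% of genes. FaAP2(1) moved the most, with 80.8, 61.4 and 54.7% of genes below it.

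The arrays also carried 10 spike-in probes, each printed in 35 spots, for RNA added in known amounts during labelling, which do not depend on the sample. Each signal was set, after subtraction of local background, against the mean of the spike-in probes in the same sample, and RNAi was compared with control within each dye. Samples of the same dye lie on different arrays, so these differences do not use the pairing by array. In each dye, one of the groups had a single sample. For single genes the mean of the differences in Cy3 and Cy5 is given. On this scale the median of the tested probes was itself lower in RNAi, by a log2 difference of -2.10 in Cy3 and -2.09 in Cy5. The normalized ratios above are therefore relative to a typical gene whose signal was lower in RNAi when set against spike-ins. Since spike-in RNA is added during labelling, this scale does not give RNA per cell. In these bulk samples, fewer cells of a type and less RNA per cell cannot be told apart, and the amount of intact RNA labelled was not tested.

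Against spike-ins all 4 members were lower in RNAi. gene12308 had relative log2 signals of -4.17, -4.15 and -4.26 in RNAi, against -3.91, -3.40 and -3.10 in control, a difference of -0.73. It was thus the member closest between the groups on this scale, and RNAi samples lay below all control samples. FaAP2(1) had -3.89, -3.74 and -4.02 in RNAi, against -2.69, -1.70 and -1.12 in control, a difference of -2.04 that was close to that of the median probe. The differences of FaNAC1 and gene28720 were -3.86 and -4.97. For the RNAi target, the FaPRE1 probe stood at -2.79 and gene30478 at -2.59, beside -2.10 for the median probe. Taken relative to the median probe, the 4 members stood at -1.76 for FaNAC1, -2.87 for gene28720, 1.37 for gene12308 and 0.05 for FaAP2(1), the same order as after loess. With the median centring, the members stood relative to the median gene at -1.58 for FaNAC1, -3.16 for gene28720, 0.81 for gene12308 and -0.43 for FaAP2(1), so that FaAP2(1) had the other sign. With this centring the arrays spread widely and limma called 0 genes, members included, although 9062 genes had an unadjusted p under 0.05.

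**Figure D3:**
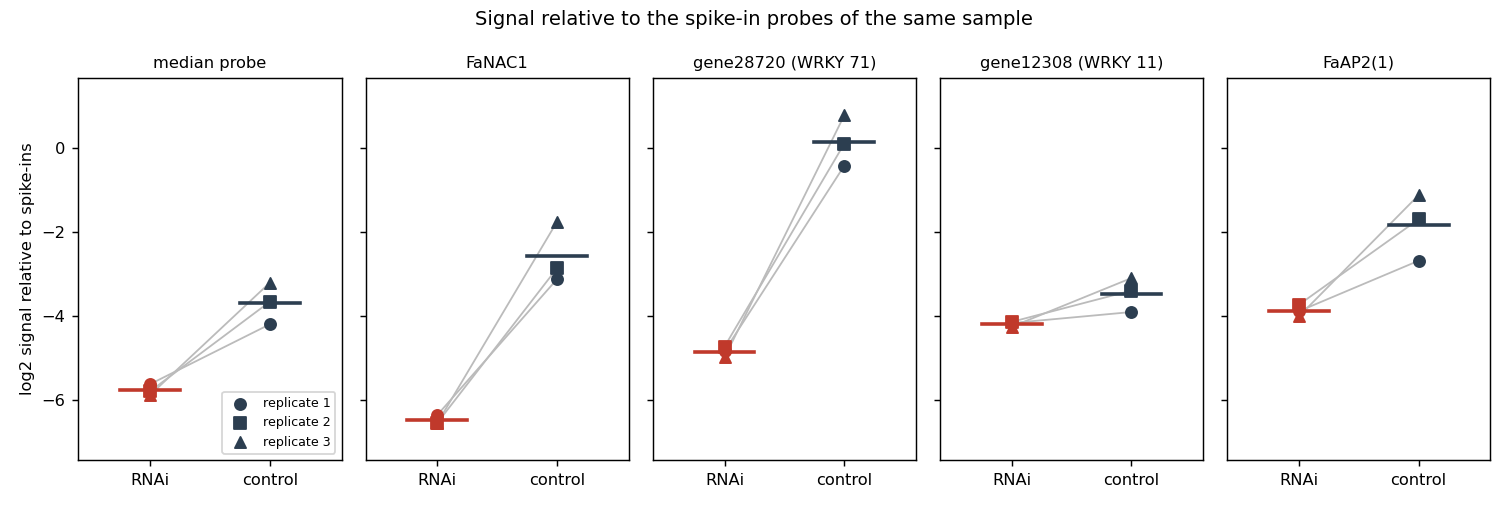
Log2 signal relative to the spike-in probes of the same sample (vertical axis, shared by all panels) for the median tested probe and the 4 members, in RNAi (left, red) and control (right, dark), with group means as bars and samples of the same array joined. The median probe, FaNAC1, gene28720, gene12308 and FaAP2(1) are all lower in RNAi, and gene12308 shows the smallest difference of them (-0.73). Differences were taken within each dye, and thus between arrays, not along the joining lines.

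Markers of ripe receptacle and of achenes also differed between the groups, in opposite directions. The 6 markers of the ripe receptacle, among them gene21638 (polygalacturonase) and gene26825 (chalcone synthase, which opens the flavonoid pathway), all fell, with a median ratio of -2.98. Their summed log2 signal was 15.09 to 15.89 in RNAi and 17.91 to 18.08 in control. The study had reported gene31413, gene21638, gene28407, gene07931 and gene34009 as lowered on these same samples. gene26825 takes its description from the study's selection as well, and the study also names a chalcone synthase among the lowered genes. The fall of these markers is therefore not independent evidence. Of 7 seed storage genes taken as markers of achenes, 6 rose, namely the legumins gene08094, gene08095, gene08096 and gene27200, the vicilin-like gene29934 and the oleosin gene28479, whereas the oleosin gene01466 was not called (0.40). Their median ratio was 3.45, and their summed log2 signal was 17.12 to 17.28 in RNAi and 13.31 to 13.81 in control. The 6 that rose take their descriptions from the study's selection of genes changed on these samples, whereas gene01466 was described by identifier. Their rise is therefore not independent evidence either. Against spike-ins the 6 seed storage genes that rose were higher in RNAi by only 1.40 to 2.44 log2 units, and gene01466 stood at -1.58. The ripe receptacle markers stood at -5.78 to -3.71 on that scale. All of these markers passed the background call in every sample, although gene29934 had normalized log2 signals of only 5.88, 6.83 and 6.37 in control. The part of these shifts in the values of FaNAC1, gene28720 and gene12308 was not tested.

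Further genes of the 3 families were taken from the part of the study's gene descriptions that runs in order of identifier, so that they were not picked for how they moved. This part held 1679 genes on the array, of which 1055 were tested and 32.3% were called (16.5% higher and 15.8% lower). It held 14 genes of the families, and 7 of these passed the filter on dim probes. The other 7, which were the NAC genes gene00151, gene00252, gene00951 and gene01364, the WRKY gene01256 and the AP2-like gene00920 and gene01262, were well above background in at most 1 RNAi and at most 1 control sample. Of the 7 genes tested, 2 rose, 2 fell and 3 were not called. Among them gene00377, which fell, and gene00059 and gene01023, which were not called, passed the filter only through the control samples. The ratios of these genes rest on RNAi signals that were not all well above background. Both genes that rose are lower in RNAi when set against spike-ins or centred on the median.

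Both tested WRKY genes of this list were called, in opposite directions, beside 32.3% of tested genes described by identifier and 34.8% of all genes. The WRKY members also went in opposite directions, but the study had selected them on these samples. gene01340, a probable WRKY75, which in Arabidopsis is a positive regulator of leaf senescence, had log2 signals of 9.80, 9.92 and 9.95 in RNAi, against 11.16, 11.01 and 11.02 in control. Its ratio was -1.18 (SE 0.12, adjusted p = 0.00202, limma), so that RNAi lay more than 1 log2 unit lower on every array. gene01197, a probable WRKY2, which in Arabidopsis acts in pollen and in seed germination, had 10.67, 10.72 and 10.84 in RNAi, against 10.03, 10.20 and 9.97 in control. Its ratio was 0.68 (SE 0.12, adjusted p = 0.0103, limma), but the call was lost without replicate 3 (adjusted p = 0.0772) and the direction turned against spike-ins (-1.54).

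Of 4 AP2/ERF genes tested, 1 fell, 1 rose and 2 were not called. gene00377 is described as WRI1, in Arabidopsis the regulator of fatty acid synthesis in seeds. It had log2 signals of 7.20, 6.89 and 7.66 in RNAi, against 8.05, 8.90 and 8.66 in control, and 2 of its 3 RNAi samples passed the background call. Its ratio was -1.29 (SE 0.24, adjusted p = 0.0111, limma), and the arrays gave -0.85, -2.01 and -1.01. The array with the dyes turned thus gave the largest change, and the methods' t-test did not call the gene (adjusted p = 0.0657). The processed signals gave a larger fall, -2.51 (adjusted p = 0.00243, limma). gene00975, an ERF4-like gene named after an Arabidopsis repressor, had 8.36, 8.55 and 8.44 in RNAi, against 7.61, 7.76 and 7.85 in control. Its ratio was 0.71 (SE 0.11, adjusted p = 0.00682, limma), and it was -1.13 against spike-ins.

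The ERF3-like gene01152 was not called (0.38, adjusted p = 0.0954, limma), although its RNAi samples lay above its control samples. The same was true of 24.7% of all tested genes, and 50.7% had groups that did not overlap in either direction. The ERF1B-like gene00059 was at -0.06 (adjusted p = 0.715, limma) and 0 of 3 RNAi samples but 3 of 3 control samples were well above background. The only tested NAC gene of the list, the NAC29-like gene01023, had a ratio of -0.37 (adjusted p = 0.113, limma). The same held for its background calls, and with the software's processed signals it was called at -1.21 (adjusted p = 0.0371).

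The study's own selection on these samples names a NAC gene and a RAV gene besides the WRKY members, which are given here as values and not as independent evidence. gene04424, a NAC100-like gene, had log2 signals of 8.44, 8.32 and 8.77 in RNAi, against 9.78, 10.17 and 10.06 in control. Its ratio was -1.49 (SE 0.15, adjusted p = 0.00193, limma), of a size near that of FaNAC1. gene03871, described as RAV1, in Arabidopsis a negative regulator of growth, had 10.76, 10.82 and 10.87 in RNAi, against 9.33, 9.56 and 9.06 in control. Its ratio was 1.50 (SE 0.14, adjusted p = 0.00167, limma), near that of gene12308, and like gene12308 it was lower in RNAi against spike-ins (-0.68). With array ratios centred on their median in place of loess, the ratio of gene03871 was only 0.007 (adjusted p = 0.991, limma).

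**Figure D4:**
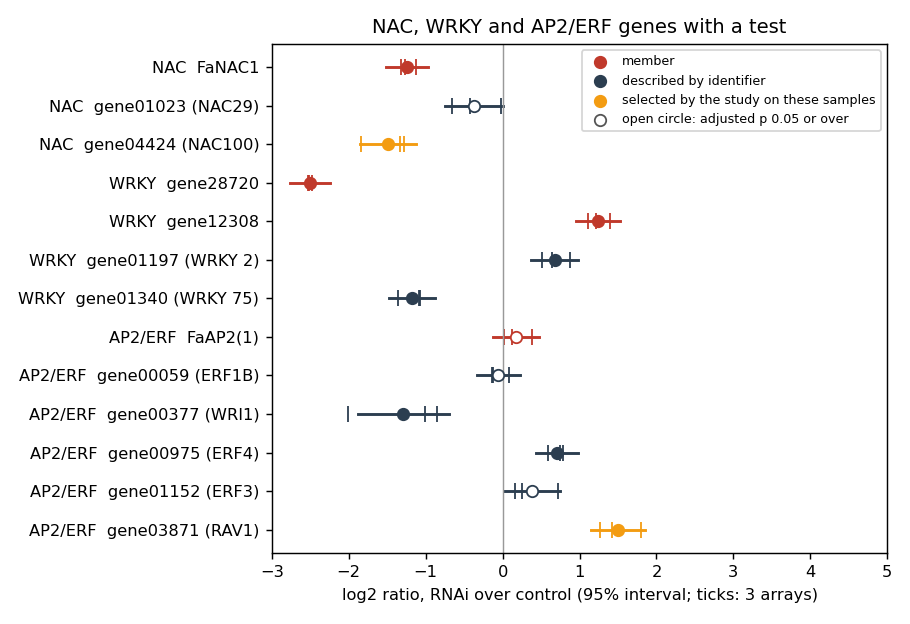
Log2 ratio of RNAi over control (horizontal axis) for each tested NAC, WRKY and AP2/ERF gene (rows), as a circle with its 95% interval and the 3 arrays as ticks. Red marks the members, dark the genes taken by identifier and orange the genes that the study selected on these samples, and filled circles are called, with gene28720 lowest at -2.51 and gene03871 highest at 1.50. All genes to the right of 0 are lower in RNAi against spike-ins.

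For each member the 3 described genes with the most similar pattern were found by the distance between their 6 normalized log2 signals, each gene centred on its own mean, among 1131 or 1132 described genes that were well above background in all 6 samples. Many of these descriptions come from the study's selection of changed genes. Since the distance is taken over the RNAi and control signals themselves, genes near a called member have a similar ratio by the way they were chosen. FaNAC1 lay nearest to gene06991, a codeinone reductase-like gene, at a distance of 0.17. gene26501, a C2 domain gene, followed at 0.29 and gene06219, a pantothenate kinase, at 0.33. All of them were lower in RNAi, by ratios of -1.28, -1.36 and -1.46.

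gene28720 lay nearest to gene34009 and gene34011, both described as vinorine synthases, at 0.29 and 0.34, and to gene01897, a methionine gamma-lyase, at 0.35. gene34009 is known as FaAAT1, an alcohol acyl transferase of ester aroma, and it is also 1 of the 6 ripe receptacle markers above. The ratios of these genes were -2.54, -2.53 and -2.37, close to that of gene28720 as the choice by distance entails.

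gene12308 lay nearest to gene08303, a RING domain gene related to BRCA1-associated proteins, at 0.12. The lectin receptor kinase gene12990 followed at 0.13 and gene00726, a response regulator similar to ARR5, at 0.20. A-type response regulators such as ARR5 are induced by cytokinin in Arabidopsis. Their ratios were 1.30, 1.32 and 1.35. FaAP2(1) lay nearest to gene01373, a translocon subunit, at 0.15, to gene00811, similar to ENHANCER OF AG-4, at 0.16, and to the calcium-dependent kinase gene00598 at 0.17, none of which was called.

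**Figure D5:**
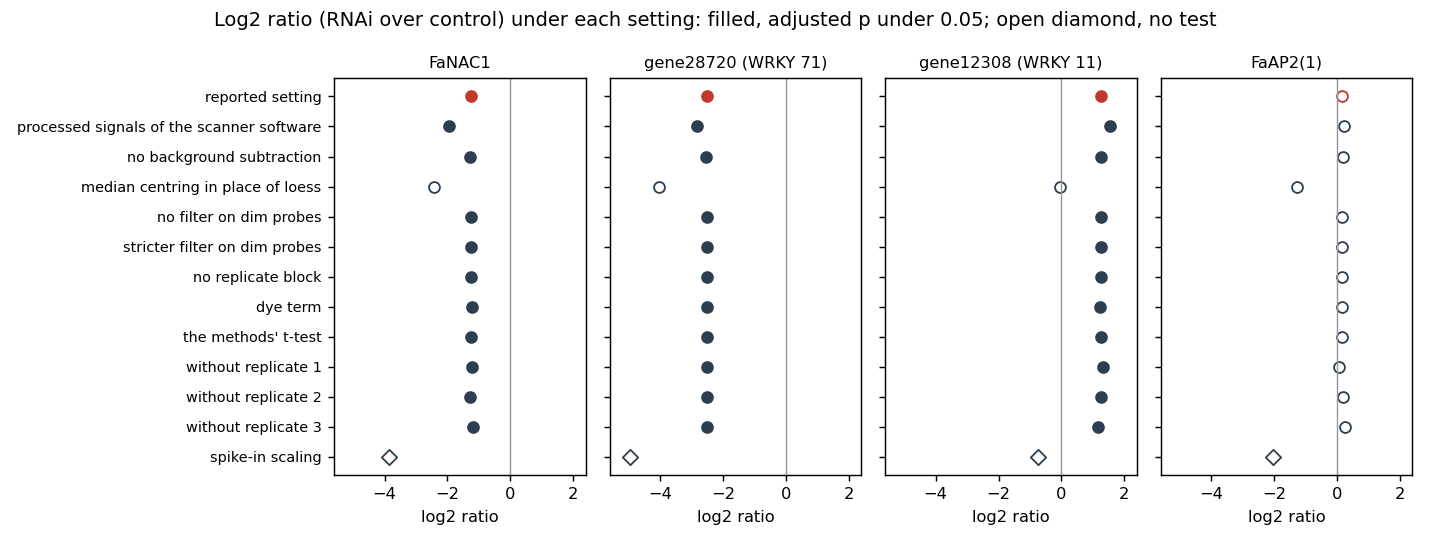
Log2 ratio of RNAi over control (horizontal axis) of each member under the reported setting (red, top row) and under each alternative (dark), with filled symbols for an adjusted p under 0.05 and open diamonds for the spike-in scale, which has no test. gene28720 and FaNAC1 stay below 0 under every setting shown, and gene12308 is above 0 except with median centring (-0.05) and against spike-ins (-0.73).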

How the data were processed

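Total RNA of 3 RNAi and 3 control samples was hybridised in pairs to 3 two-colour 60-mer arrays. The authors deposited 1 scanner file per array, made per the labels with Agilent Feature Extraction 10.7, whose median signals, local backgrounds and processed signals are intensity values. Processed signals are background-subtracted and dye-normalized by the software. Each channel is a separate sample in the labels.

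In R 4.3.3 with limma 3.58.1, median signals (the files lack the mean signals first planned) were background corrected by normexp (offset 50), normalized by loess within arrays with control and outlier spots at weight 0, and turned to RNAi over control. Spots of a probe and probes of a gene were averaged. Probes entered with at least 50% of spots well above background in each of the 3 samples of at least 1 group. Ratios were tested with lmFit and eBayes, with Benjamini-Hochberg adjustment over 21098 genes. Signals per sample were scaled by Aquantile. The code was tested on simulated data.

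Replicate numbers pair the samples because those of 1 number share an array. Across genes, which are not independent, deviations from the group means correlated at 0.43 (replicate 1), -0.04 (replicate 2) and 0.17 (replicate 3). Alternatives changed the signal column, background, normalization, filter, block, dye term, test and replicates. Members and lists were chosen with earlier results of these data known. Named are the 4 members, the listed family, marker and target genes, and the 3 described genes nearest to each member. Annotation tables at hand did not match the array's identifiers.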

Additional observations from a re-analysis of the deposited data

How the results depend on the processing

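FaNAC1, gene28720 and gene12308 kept their direction and their call, and FaAP2(1) stayed uncalled, with processed signals, without background subtraction, with no or a stricter filter on dim probes, with a dye term, with the methods' t-test and without any 1 replicate. Without the replicate block, that is with the pairing by array ignored, 7358 genes were called, and no call of a member changed. Centring each array on its median in place of loess left the median tested gene at -0.86 and called 0 genes by limma, although 9062 had an unadjusted p under 0.05, so that 0 of the 7 family genes tested were called. FaNAC1 was then at -2.44 and gene28720 at -4.02 (adjusted p = 0.0511 for both), while gene12308 (-0.046) and FaAP2(1) (-1.29) changed sign, as did gene01023 (0.033), gene01197 (-0.84), gene00059 (0.27), gene00975 (-0.32), gene01152 (-1.12) and gene01466 (-0.84). Against spike-ins FaNAC1 was at -3.86, gene28720 at -4.97, FaAP2(1) at -2.04 and gene12308, reversed, at -0.73. The cause was not tested. Leaving out 1 replicate gave 3458 to 7127 genes called, with 4305 without replicate 2 and 3458 without replicate 3. Members then ranged from -1.30 to -1.20 for FaNAC1, -2.52 to -2.50 for gene28720, 1.17 to 1.31 for gene12308 and 0.07 to 0.25 for FaAP2(1), and 3 to 4 family genes were called. The methods' t-test called 4934 genes. gene01466 was called only with replicate 1 left out (0.73, adjusted p = 0.00845). In RNAi, FaNAC1 lay near background.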
